A study of Rattus norvegicus with 4 samples.

Results

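The genes described here are 9 rat genes of vasoactive peptides and prostanoids: adrenomedullin (Adm), endothelin 1 (Edn1), the endothelin receptors Ednra and Ednrb, the angiotensin II receptor Agtr1a, the cyclooxygenases Ptgs1 and Ptgs2, prostaglandin E synthase (Ptges) and prostacyclin synthase (Ptgis). They were chosen by gene name, and 11 of the 41012 gene probes of the array carry one of these names. All 9 were among the 25520 genes tested, each through its brightest probe. The names were picked with results of the endoglin siRNA arrays in view, so the ratios of these genes on those arrays, and their differences from untreated cells, are given as a description. Where such a ratio is said to have passed a threshold, this reports the fit over all genes and supports nothing about the 9 genes.

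The cells were rat hepatic stellate cells, pericytes that store vitamin A around the liver sinusoids. Some were transfected with an siRNA against endoglin, a co-receptor for TGF-beta and BMP ligands, some were left untreated, and some were transfected with a control siRNA. No other allele, treatment or animal detail, and no day of culture or harvest, is given in the sources used here. Endoglin siRNA and untreated RNA was labelled with Cy5, and each array also carried Cy3-labelled RNA of control siRNA cells, with no dye swap. Each of the 2 Cy5 groups had 2 arrays, 1 with RNA of 1 animal and 1 with RNA of 3 animals. The labels do not say whether the single animal was also in the pool or whether 1 control RNA served several arrays. On the 2 endoglin siRNA arrays the log2 ratio of Eng, the targeted gene, to control siRNA was -3.08 (1 animal) and -1.72 (pool), and on the 2 untreated arrays it was -0.36 and -0.42.

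Vasoactive peptides and prostanoids set the tone of contractile cells. Endothelin 1 and angiotensin II contract activated stellate cells through G protein-coupled receptors, and adrenomedullin relaxes vascular smooth muscle through a receptor made of Calcrl and a RAMP protein. Cyclooxygenases turn arachidonic acid into prostaglandin H, from which Ptges makes prostaglandin E and Ptgis makes prostacyclin, a vasodilator. In bulk RNA, fewer cells of a type and less RNA per cell cannot be told apart.

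Adm, Agtr1a and Ptgs2 are the 3 members that lay above control siRNA on both endoglin siRNA arrays and passed the threshold there. They are shown with the 250 bases before the start in their promoter table entry, on build GRCr8, 5′ to 3′ on the strand of the gene. That start need not be the outer end of the RefSeq gene. The Adm window lies inside the gene (174164178 to 174182372), and the Agtr1a window includes the first base of the gene, at 34435523. Capitals mark matches, on either strand, to TATAA (the TATA box), CACGTG (an E-box), GGCGCC and CAGAC (Smad-binding elements), GTCTAGAC (the palindromic Smad element) and TGACTCA (the AP-1 site).
Adm, chr1:174179950-174180199, plus strand: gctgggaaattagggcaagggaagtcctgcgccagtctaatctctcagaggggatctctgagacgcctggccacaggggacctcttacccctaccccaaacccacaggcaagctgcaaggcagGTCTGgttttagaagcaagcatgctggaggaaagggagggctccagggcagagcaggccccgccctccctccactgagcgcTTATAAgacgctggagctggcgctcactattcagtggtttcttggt
Agtr1a, chr17:34435433-34435682, minus strand: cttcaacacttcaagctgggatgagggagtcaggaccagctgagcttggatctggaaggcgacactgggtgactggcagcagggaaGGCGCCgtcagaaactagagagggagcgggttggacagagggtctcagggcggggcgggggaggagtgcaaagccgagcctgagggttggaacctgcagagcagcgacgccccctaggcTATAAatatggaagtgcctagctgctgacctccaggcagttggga
Ptgs2, chr13:64713813-64714062, plus strand: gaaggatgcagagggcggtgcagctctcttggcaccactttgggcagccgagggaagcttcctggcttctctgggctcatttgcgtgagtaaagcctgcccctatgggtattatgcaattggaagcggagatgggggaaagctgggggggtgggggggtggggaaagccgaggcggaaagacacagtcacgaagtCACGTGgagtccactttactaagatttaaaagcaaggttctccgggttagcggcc
In Adm the capitals nearest the start are TATAA matches on both strands that overlap, and the other capitals are a CAGAC match on the opposite strand. Agtr1a holds TATAA and GGCGCC, and Ptgs2 holds CACGTG. Among the 8 members with an entry in the promoter table, which has none for Ptgis, TATAA was found in 4 (Adm, Agtr1a, Edn1 and Ptgs1), CAGAC in 5 (Adm, Edn1, Ednra, Ednrb and Ptges), CACGTG in 1, GGCGCC in 1, and TGACTCA and GTCTAGAC in 0. Of 33469 rat promoters cut to the same length, 24% hold TATAA, 42.9% CAGAC, 5.59% CACGTG, 8.69% GGCGCC, 4.05% TGACTCA and 0.173% GTCTAGAC. The matches describe the letters of these windows and do not show binding.

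Values below are log2 ratios of Cy5 over Cy3 after normalisation within each array, so a positive ratio is higher than in control siRNA cells. On the untreated arrays this direction, taken from the dyes in the labels, is opposite to the sign of the authors' deposited ratio table. With that sign every untreated ratio turns round, so that the untreated mean of Adm is -0.60 and that of Edn1 0.26. A gene is said to pass when its limma p-value, Benjamini-Hochberg adjusted over all 25520 genes, lies under 0.05. With endoglin siRNA 4 of the 9 members passed against control siRNA, 3 higher (Adm, Agtr1a and Ptgs2) and 1 lower (Ptgis). Of all genes 8.13% passed in this comparison, 5.25% higher and 2.88% lower, and since the members were chosen on it nothing is read from their count. In untreated cells 1 of the 9 passed against control siRNA (Adm, higher), against 0.709% of all genes, 0.435% higher. Between endoglin siRNA and untreated cells 0 of the 9 passed in limma, 3 had an unadjusted p under 0.05 (Edn1, Ptgs2 and Ptgis), and 0.102% of all genes passed, with 8.23% under 0.05 unadjusted. These counts also rest on the arrays the genes were chosen on, and nothing is read from them. The 9 members had a median log2 ratio of 0.28 with endoglin siRNA and -0.01 in untreated cells, where all genes had medians of 0.02 and 0.

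**Figure D1:**
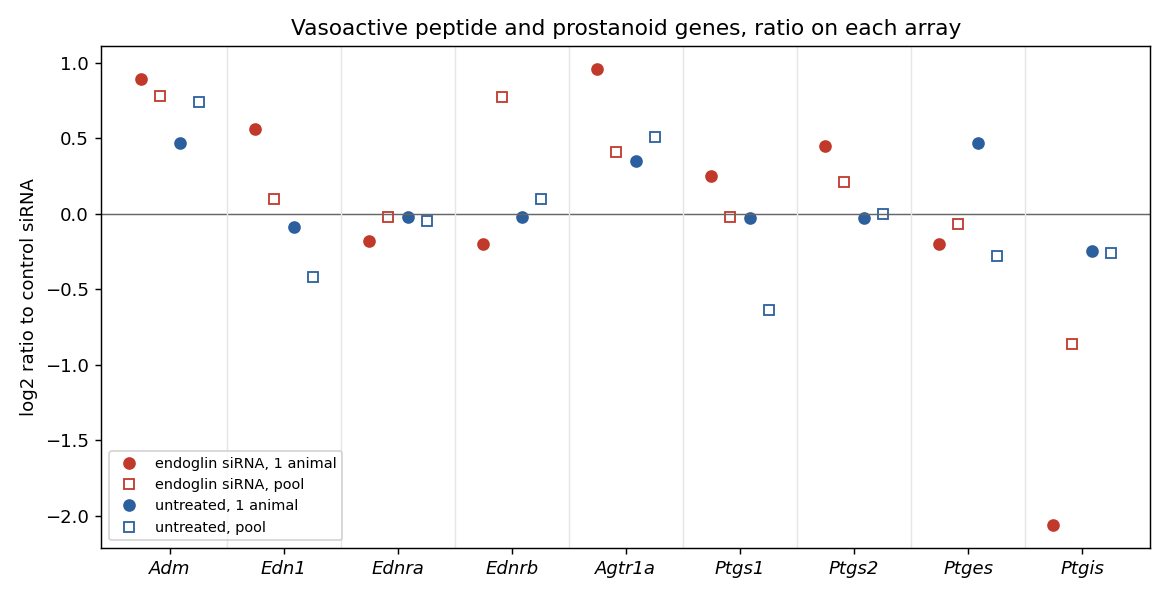
Log2 ratio to control siRNA (vertical axis) of each of the 9 genes on the 4 arrays, endoglin siRNA in red and untreated in blue, with filled circles for RNA of 1 animal and open squares for the pool of 3. Adm lies above 0 on all 4 arrays, between 0.47 and 0.89, and Ptgis lies below 0 on all 4, between -2.06 and -0.25.

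Adm, the gene of the vasodilator peptide adrenomedullin, was higher than in control siRNA cells on every array. Its log2 ratios were 0.89 (1 animal) and 0.78 (pool) on the endoglin siRNA arrays, against 0.47 and 0.74 on the untreated arrays. Both endoglin siRNA ratios lay above both untreated ratios, but the gap between the pools was smaller than the SD over the spots of this probe on 1 array, which was 0.05 to 0.10. The mean was 0.84 ± 0.08 with endoglin siRNA and 0.60 ± 0.08 in untreated cells (SE of the moderated fit, n = 2 arrays each). With endoglin siRNA this is 1.78-fold the control siRNA level and place 45 from the top among 25520 genes.

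In untreated cells Adm was 1.52-fold the control siRNA level, and this passed (limma, adjusted p = 0.0331). Over 12 alternatives its adjusted p lay between 0.00666 and 1 and was under 0.05 in 7. With the Feature Extraction log ratios the untreated mean was 0.35, and with either untreated array left out the call was lost (0.74 without the array of 1 animal and 0.47 without the pool). By the dyes in the labels, Adm was thus higher than in control siRNA cells without any siRNA as well. With the untreated sign of the deposited table it was lower there, at -0.60. Endoglin siRNA minus untreated was 0.23 ± 0.11, or 1.44 with that sign. As a sum the Kupffer cell markers were also higher in untreated cells. The 13 measured ones summed to 30700 and 11100 in endoglin siRNA RNA, against 29400 and 9060 in the control siRNA RNA of those arrays. In untreated RNA they summed to 59200 and 23200, against 31300 and 10100. Bright markers weigh most: in control siRNA RNA Lyz2 read up to 11700, Cd68 up to 5860 and Cd14 up to 5480. Against control siRNA 4 of the 13 passed higher in untreated cells, and 1 (Cd14) with endoglin siRNA. Of all genes 0.435% and 5.25% did so. The part of these markers in the Adm ratio was not tested.

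Of 9 listed genes of adrenomedullin and CGRP peptides and receptors, 8 were measured and 1 passed with endoglin siRNA against control siRNA, Crcp, a component of the CGRP receptor, at 0.28 ± 0.06 (limma, adjusted p = 0.0418). Crcp passed in 3 of 12 alternatives, with adjusted p between 0.0197 and 0.197, and lost the call with any 1 of the 4 arrays left out (0.25 to 0.31). Calcrl, the receptor itself, had a mean log2 ratio of -0.08 with endoglin siRNA and -0.02 in untreated cells, and Ramp2 had -0.03 and -0.10. Ramp1 had ratios of 0.04 and 0.45 with endoglin siRNA, against 0.12 and 0.80 in untreated cells, with the higher value in the pool in both groups.

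Agtr1a encodes the type 1 receptor through which angiotensin II contracts stellate cells. Its brightest probe, with 10 spots per array, had log2 ratios of 0.96 (1 animal) and 0.41 (pool) with endoglin siRNA, against 0.35 and 0.51 in untreated cells. The array of 1 animal with endoglin siRNA stood above the other 3, which lay close together, so the groups overlapped. The means were 0.69 ± 0.12 with endoglin siRNA and 0.43 ± 0.12 in untreated cells, and the untreated mean did not pass (limma, adjusted p = 0.178). That adjusted p ranged from 0.0222 to 1 over 12 alternatives and was under 0.05 when either endoglin siRNA array was left out of the fit. Without the endoglin siRNA array of 1 animal the endoglin siRNA ratio was 0.41 and no longer passed.

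A second Agtr1a probe, with 1 spot, gave a different pattern. Its ratios were -0.04 and 0.50 with endoglin siRNA, against -0.07 and -0.11 in untreated cells, so here the endoglin siRNA pool stood apart and not the array of 1 animal. With both probes averaged the Agtr1a mean was 0.46 with endoglin siRNA and 0.17 in untreated cells. Agtr1b, the close copy of this gene that rats carry, had ratios of 0.40 and 0.06 with endoglin siRNA and of -0.06 and -0.07 in untreated cells. Which of the 2 receptor genes each probe binds was not tested.

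Of 12 other listed genes of the renin-angiotensin system 7 were measured, and 1 was higher with endoglin siRNA. This was Enpep, aminopeptidase A, which cleaves angiotensin II, at 0.64 and 0.52 with endoglin siRNA, against 0.18 and 0.13 in untreated cells. Its endoglin siRNA mean of 0.58 ± 0.06 passed against control siRNA (limma, adjusted p = 0.00525), with adjusted p from 0.00115 to 0.197 over 12 alternatives, 8 of them under 0.05. Averaged over all Enpep probes the mean was 0.22 and did not pass. Against untreated cells the Enpep difference was 0.42 ± 0.09 (limma, adjusted p = 0.232).

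Edn1, the precursor gene of the vasoconstrictor endothelin 1, was the one member with both endoglin siRNA ratios on one side of 0 and both untreated ratios on the other. The share of all genes with such a split was not counted, so nothing is read from it. Its log2 ratios were 0.56 (1 animal) and 0.10 (pool) with endoglin siRNA, against -0.09 and -0.42 in untreated cells. The endoglin siRNA arrays were the higher ones, and the pool was the lower array in each group. The intensities behind them were 3140 and 1440 in endoglin siRNA RNA, against 2130 and 1340 in the control siRNA RNA of the same arrays. In untreated RNA they were 1490 and 1010, against 1590 and 1350 in control siRNA RNA.

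The mean Edn1 ratio was 0.33 ± 0.12 with endoglin siRNA and -0.26 ± 0.12 in untreated cells, where it did not pass (limma, adjusted p = 0.416). Endoglin siRNA minus untreated was 0.59 ± 0.17, or 0.07 with the untreated sign of the deposited table. The positive sign on the endoglin siRNA pool depended on the background: it was -0.06 with the background fitted without 10 disturbed spots (mean signal more than 100 below background) and -0.04 with the Feature Extraction log ratios. Kdr, a VEGF receptor gene of endothelial cells, had ratios of 1.33 and 0.41 with endoglin siRNA, against -0.03 and -0.03 in untreated cells. Fcgr2b, another endothelial marker, ran the other way, with 0.27 and 0.04 with endoglin siRNA, against 0.61 and 0.47 in untreated cells. The 9 measured endothelial markers summed to 10700 and 2580 in endoglin siRNA RNA, against 7230 and 2400 in the control siRNA RNA of those arrays, and to 9630 and 2410 in untreated RNA, against 7600 and 2200. Only Kdr and Fcgr2b of them were well above background in all 8 channels, while Lyve1 was so in 2 and Pecam1, Tek and Flt4 in 3, and the part of endothelial RNA in the Edn1 ratios was not tested.

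The endothelin receptor genes showed no common shift. Ednrb, whose receptor binds all endothelins, had log2 ratios of -0.20 (1 animal) and 0.77 (pool) with endoglin siRNA, against -0.02 and 0.10 in untreated cells. The endoglin siRNA arrays thus lay on either side of both untreated arrays, although the SD over the 10 spots of 1 array was at most 0.03. Its mean was 0.28 ± 0.19 with endoglin siRNA and 0.04 ± 0.19 in untreated cells (limma, adjusted p = 0.958 for the untreated mean). Ednra, the receptor that mediates contraction, had ratios of -0.18 and -0.02 with endoglin siRNA, against -0.02 and -0.05 in untreated cells (adjusted p = 0.897 for the untreated mean of -0.03 ± 0.07 in limma). Its probe was dim, with intensities of 260 to 307 over all channels, and the offset of 50 added to each signal shrinks ratios at that level.

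Of 6 other listed endothelin genes 2 were measured, the endothelin-converting enzyme Ece1 and its relative Ecel1, and 0 passed in any of the 3 comparisons. Ecel1 had the larger mean ratio with endoglin siRNA, 0.05 ± 0.06, with an unadjusted p above 0.05 (limma, adjusted p = 0.70). Ece1 stood at -0.04 with endoglin siRNA and -0.22 in untreated cells.

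**Figure D2:**
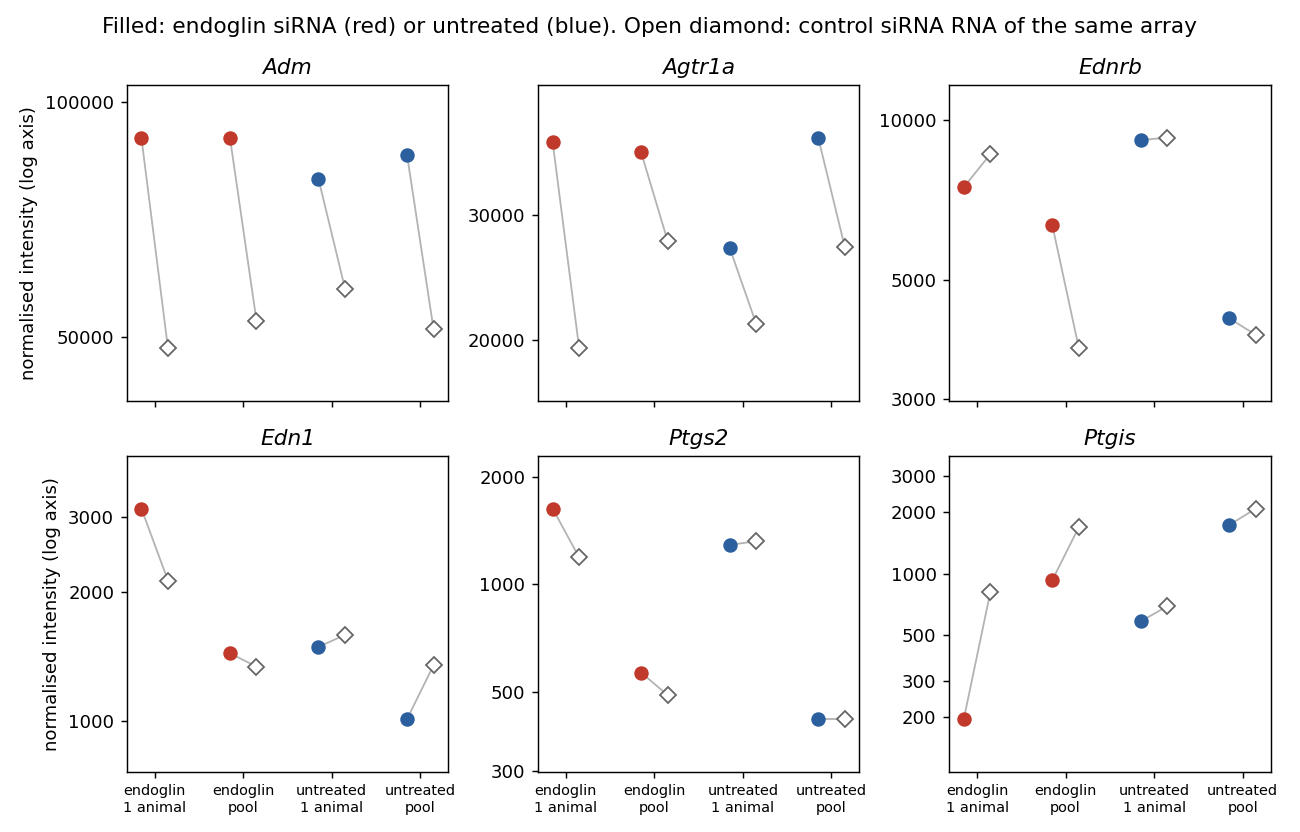
Normalised intensity on a log axis for 6 of the genes, with the filled point for endoglin siRNA (red) or untreated (blue) RNA and the open diamond for the control siRNA RNA of the same array. For Ednrb the endoglin siRNA points lie at 7470 (1 animal) and 6340 (pool) while the control siRNA diamonds beside them lie at 8610 and 3730, and for Ptgis the lowest point is 195, in endoglin siRNA RNA of 1 animal.

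Ptgis, prostacyclin synthase, had the largest ratio of the 9 genes in size. Its log2 ratios were -2.06 (1 animal) and -0.86 (pool) with endoglin siRNA, against -0.25 and -0.26 in untreated cells. Both endoglin siRNA arrays lay below both untreated arrays, which were nearly equal. The intensities were 195 and 930 in endoglin siRNA RNA, against 812 and 1690 in the control siRNA RNA of the same arrays, and 586 and 1730 in untreated RNA, against 694 and 2080.

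The mean was -1.46 ± 0.23 with endoglin siRNA, 2.75-fold below control siRNA and place 13 from the bottom among 25520 genes. In untreated cells it was -0.25 ± 0.23 and did not pass (limma, adjusted p = 0.726, with 0 of 12 alternatives under 0.05). Endoglin siRNA minus untreated was -1.21 ± 0.33. The probe has 1 spot per array, so no spread over spots is known, and it was well above background in both channels of all 4 arrays. The endoglin siRNA mean was -2.22 with the Feature Extraction log ratios, and -0.86 without the array of 1 animal.

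Ptgs2 encodes the inducible cyclooxygenase. Its brightest probe had log2 ratios of 0.45 (1 animal) and 0.21 (pool) with endoglin siRNA, against -0.03 and 0.00 in untreated cells. The groups did not overlap, and the untreated arrays lay at the control siRNA level. The mean was 0.33 ± 0.07 with endoglin siRNA and -0.01 ± 0.07 in untreated cells (limma, adjusted p = 0.968 for the untreated mean). Endoglin siRNA minus untreated was 0.34 ± 0.10.

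The size of the Ptgs2 ratio depended on the background, and its second probe did not show it. The endoglin siRNA mean was 0.51 without background correction or with the background fitted without the disturbed spots, and 0.57 with the Feature Extraction log ratios. The second probe, with 1 spot, was dim: it had ratios of 0.17 and -0.01 with endoglin siRNA, against 0.17 and -0.03 in untreated cells, and was not well above background in either channel of the untreated array of 1 animal. With both probes averaged the endoglin siRNA mean was 0.20. Its call was lost there, without the endoglin siRNA array of 1 animal (0.21), and without either untreated array (0.33).

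Ptgs1, the constitutive cyclooxygenase, had log2 ratios of 0.25 and -0.02 with endoglin siRNA, against -0.03 and -0.64 in untreated cells. The groups did not overlap, though the pool with endoglin siRNA and the untreated array of 1 animal were almost equal, and the untreated pool lay lowest. They overlapped with the Feature Extraction log ratios, at 0.23 and -0.23 with endoglin siRNA, against -0.07 and -0.75 in untreated cells. Its means were 0.11 ± 0.14 with endoglin siRNA and -0.34 ± 0.14 in untreated cells (limma, adjusted p = 0.341). Ptges, the inducible synthase of prostaglandin E, had ratios of -0.20 and -0.07 with endoglin siRNA, against 0.47 and -0.28 in untreated cells, so the groups overlapped. Its untreated mean of 0.10 ± 0.15 did not pass (limma, adjusted p = 0.856) and turned to -0.29 with the Feature Extraction log ratios.

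Among the 9 members, 4 had both endoglin siRNA ratios above both untreated ratios (Adm, Edn1, Ptgs1 and Ptgs2) and 1 had both below (Ptgis). Of all genes 24.4% had both above and 11.6% had both below. Agtr1a, Ednra, Ednrb and Ptges overlapped. With the background fitted without the disturbed spots Ptgs1 overlapped as well. With the Feature Extraction log ratios Ptgs1 overlapped too, while Agtr1a lay above and Ednra below. The share of all genes was not counted with either setting, so nothing is read from these changes. With the untreated sign of the deposited table there were 3 above (Adm, Agtr1a and Ptgs2) and 2 below (Ednra and Ptgis), beside 32.1% and 24.1% of all genes. For this count these settings were chosen after seeing the data. Both groups are ratios to control siRNA RNA, and the labels do not say whether that RNA was shared.

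**Figure D3:**
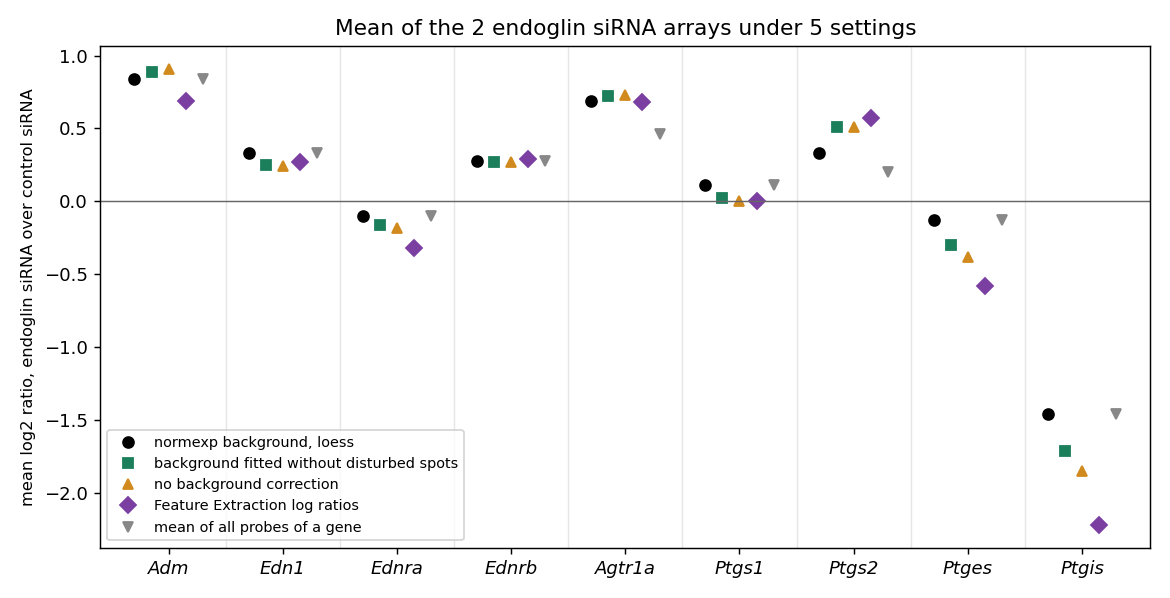
Mean log2 ratio of the 2 endoglin siRNA arrays to control siRNA (vertical axis) for the 9 genes under 5 ways of processing, 1 symbol each. Adm, Agtr1a and Ptgs2 stay above 0 and Ptgis stays below 0 under all 5, with Ptgis between -2.22 and -1.46 and Ptgs2 between 0.20 and 0.57.

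The level of several members in control siRNA cells depended on the RNA source more than on the array. The Ptgs2 probe read 1190 and 1320 in control siRNA RNA of 1 animal, against 490 and 420 in that of the pool, and the Ednrb probe read 8610 and 9250, against 3730 and 3950. Ptgis ran the other way, with 812 and 694 in 1 animal, against 1690 and 2080 in the pool. For each of these 3 genes the difference was at least 2-fold on both the endoglin siRNA and the untreated pair of arrays. Of the 9 members 2 were at least 2-fold higher and 1 at least 2-fold lower by this measure, against 1.5% and 1.31% of all genes.

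The mean log2 difference of 1 animal minus pool was 1.47 for Ptgs2, 1.22 for Ednrb and -1.32 for Ptgis, and 0.62 for Ptges, 0.45 for Edn1, -0.43 for Agtr1a and 0.03 for Adm. There is no test of these values, since the arrays with RNA of 1 animal may carry the same control RNA, as may those with the pool. With processed Cy3 signals scaled to the 75th percentile, an alternative chosen after seeing the data, the differences were 2.28 for Ptgs2, 1.29 for Ednrb and -1.94 for Ptgis. In the same control siRNA RNA the Kupffer cell markers summed to 29400 and 31300 in 1 animal, against 9060 and 10100 in the pool, and the endothelial markers to 7230 and 7600, against 2400 and 2200. The endothelial sums rest on Kdr (313 to 2360 over the control readings) and Fcgr2b (434 to 4170), since no other endothelial marker read above 317 there. The part of either marker set in the levels of Ptgs2, Ednrb and Ptgis was not tested. All 12 stellate cell markers, among them Des, Lrat and Pdgfrb, were well above background in all channels.

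The other genes of prostanoid synthesis gave 1 gene that was higher in each comparison with control siRNA. Of 14 listed genes 12 were measured. Pla2g4a, the cytosolic phospholipase that releases arachidonic acid, had log2 ratios of 0.36 and 0.48 with endoglin siRNA, against 0.02 and 0.33 in untreated cells. Its endoglin siRNA mean of 0.42 ± 0.09 passed (limma, adjusted p = 0.0287), with 7 of 12 alternatives under 0.05 and adjusted p between 0.00486 and 0.197. The call was lost without either endoglin siRNA array (0.48 without the array of 1 animal and 0.36 without the pool).

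Tbxas1, thromboxane synthase, had log2 ratios of 0.15 and -0.05 with endoglin siRNA, against 0.87 and 1.06 in untreated cells. Both untreated arrays stood far above both endoglin siRNA arrays. Its untreated mean of 0.97 ± 0.08 passed against control siRNA (limma, adjusted p = 0.00784), with adjusted p between 0.000902 and 1 over 12 alternatives, 8 of them under 0.05. The call was lost without the untreated pool (0.87). Endoglin siRNA minus untreated was -0.92 ± 0.11 and did not pass (limma, adjusted p = 0.0528), but it passed in 4 of 12 alternatives (adjusted p 0.00853 to 0.685). The macrophage gene C1qa had a like pattern, with ratios of 0.15 and -0.02 with endoglin siRNA, against 1.03 and 1.29 in untreated cells. It was picked after its values were seen, and not all Kupffer cell markers ran like it. Cd14 had 0.35 and 0.75 with endoglin siRNA, against 0.51 and 0.48 in untreated cells. Clec4f had 0.92 and 0.03, against 1.20 and 0.14. The part of C1qa, or of the other Kupffer cell markers, in the Tbxas1 ratios was not tested. Ctsd, a lysosomal protease that can release angiotensin from its precursor, also passed in untreated cells, at 0.60 ± 0.09 (limma, adjusted p = 0.048), with ratios of 0.39 and 0.05 with endoglin siRNA, against 0.69 and 0.50 in untreated cells. It passed in 6 of 12 alternatives, with adjusted p between 0.00324 and 1, and its mean was 0.33 with the Feature Extraction log ratios. Leaving out either untreated array ended the call (0.50 without the array of 1 animal and 0.69 without the pool).

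Of 12 listed prostanoid and leukotriene receptor genes 8 were measured and 0 passed in any comparison. The largest was Tbxa2r, the thromboxane receptor, at -0.37 ± 0.10 with endoglin siRNA (limma, adjusted p = 0.0731, unadjusted p under 0.05), from -0.59 and -0.14 on the 2 arrays, against -0.23 and -0.24 in untreated cells, which lie between them. Ptgir, the prostacyclin receptor, had -0.09 and -0.03 with endoglin siRNA, against 0.01 and -0.03 in untreated cells. Of 5 genes of prostanoid transport and breakdown 3 were measured and 0 passed. Ptgr1, a prostaglandin reductase, was at 0.80 and 0.02 with endoglin siRNA, against -0.29 and -0.65 in untreated cells (limma, adjusted p = 0.202 for the endoglin siRNA mean of 0.41 ± 0.17).

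The remaining lists gave 1 gene each with endoglin siRNA. Of 18 genes of kinin, vasopressin, urotensin, apelin and natriuretic peptides 15 were measured, and Nppc, the gene of C-type natriuretic peptide, passed. Its log2 ratios were 0.29 and 0.75 with endoglin siRNA, against 0.00 and 0.01 in untreated cells, with a mean of 0.52 ± 0.11 (limma, adjusted p = 0.0284). It passed in 6 of 12 alternatives (adjusted p 0.00516 to 0.308), its mean was 1.18 with the background fitted without the disturbed spots and 2.68 with the Feature Extraction log ratios, and the call was lost without the endoglin siRNA pool (0.29) or without either untreated array. Of 12 genes of nitric oxide and cyclic GMP 8 were measured, and Gucy1a1, a subunit of the nitric oxide receptor guanylate cyclase, passed at 0.37 ± 0.08 (limma, adjusted p = 0.0366), from 0.23 and 0.52 with endoglin siRNA, against 0.06 and 0.14 in untreated cells. Gucy1a1 passed in 5 of 12 alternatives (adjusted p 0.00838 to 0.241). The call was lost without the endoglin siRNA pool (0.23), without either untreated array, and with all probes averaged (0.17).

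Over all 88 listed genes 63 were measured. With endoglin siRNA 5 passed higher and 0 lower against control siRNA, in untreated cells 2 passed higher and 0 lower, and between endoglin siRNA and untreated cells 0 passed. Of all genes 5.25% passed higher with endoglin siRNA, 0.435% passed higher in untreated cells, and 0.102% passed between them. Their median log2 ratio was 0.02 with endoglin siRNA and -0.03 in untreated cells, beside 0.02 and 0 for all genes.

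**Figure D4:**
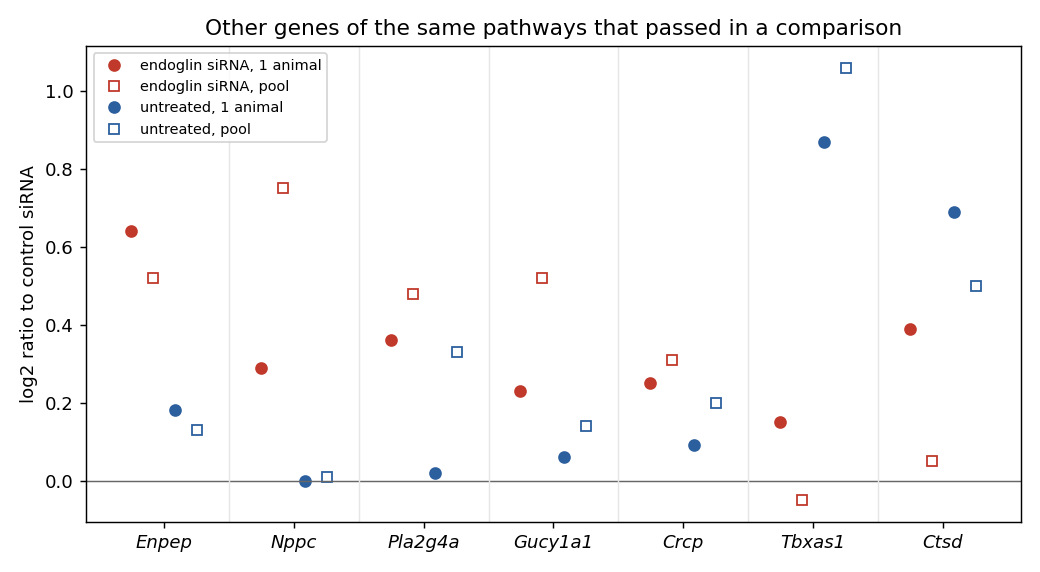
Log2 ratio to control siRNA (vertical axis) on the 4 arrays for the 7 other pathway genes that passed in a comparison, endoglin siRNA in red and untreated in blue, with filled circles for 1 animal and open squares for the pool. Enpep has 0.64 and 0.52 with endoglin siRNA beside 0.18 and 0.13 in untreated cells, while Tbxas1 has 0.87 and 1.06 in untreated cells beside 0.15 and -0.05 with endoglin siRNA.

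The genes nearest to the members with the largest endoglin siRNA ratios were sought by Euclidean distance over the 4 log2 ratios. Among the nearest to Ptgis were Prss35 (distance 0.486), a serine protease-like gene, and Tgm2 (0.607), a transglutaminase. Prss35 had log2 ratios of -1.65 and -0.69 with endoglin siRNA, against -0.38 and -0.12 in untreated cells. Nearest to Adm were Plscr4 (0.163), a phospholipid scramblase, Rps6 (0.26), a protein of the small ribosomal subunit, and Tceal9 (0.284). Plscr4 had 0.90 and 0.93 with endoglin siRNA, against 0.42 and 0.70 in untreated cells. With 4 arrays such distances describe these libraries only.

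Between the 4 arrays 61.9% to 93.3% of the 43379 gene spots of a channel were well above background, with the highest share in each channel on the untreated pool, and 0 gene probes were saturated. With 2 arrays in each group, precision is low for every value given.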

How the data were processed

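Amplified RNA was hybridized to 4 Agilent 4x44K rat arrays on 1 slide, per the labels. Signals were extracted by the authors with Agilent Feature Extraction, version 9.5.1.1 in the file headers; Rosetta Resolver is also named in the labels. The deposited files hold intensity values and log10 ratios of Cy5 to Cy3. The authors' value table has the same log10 ratios (largest difference 0.0048), with the sign turned on the untreated arrays. No genome build is given in the sources used here.

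From the deposited intensities, log2 ratios were computed with limma 3.58.1 in R 4.3.3 (normexp background with offset 50, loess, controls at weight 0). Flagged spots (189 to 289 per array) were left out. A probe was kept when well above background in 1 channel on at least 2 arrays and usable on all (29831 of 41012), and the brightest probe stood for each of 25520 gene names, of which 12111 matched a RefSeq symbol (GRCr8). Sequences are RefSeq's. Intensities per channel were scaled by Aquantile.

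The limma model had 2 group means (residual degrees of freedom 2, prior 5.28). It was also run on data simulated with the fitted spreads. There it called 100 of 100 genes shifted by a log2 of 1 and 100 of 100 shifted by 2. Beside them 28 unchanged genes were called falsely. Smaller shifts were not simulated, and every member but Ptgis had a smaller mean ratio. The simulated errors were independent between arrays, with no shared control RNA and no effect of RNA source. Control siRNA RNA was only the other dye, so its spread enters the p-values only through the ratios. It cannot be told apart from that of the Cy5 RNA, and is left out as far as arrays shared control RNA. The spread of 2 arrays may also be partly technical. The members, the 8 pathway lists (88 genes), the markers and the tests were chosen with earlier results of these data known. Named were all members, pathway genes that passed or the largest of a list with none, Eng, and the 3 genes nearest to each of 2 members, 1 of which is not reported here; Agtr1b, C1qa, Kdr, Calcrl, Ramp1, Ramp2, Ptgir and Ece1 were added after their values were seen. Alternatives were other backgrounds, Feature Extraction ratios, the value table, median centring, no filter, all probes averaged, RNA source as a block, and each array left out.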

Additional observations from a re-analysis of the deposited data

Results flagged for a closer look

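The difference of Edn1 between the groups was flagged because both endoglin siRNA arrays lay above control siRNA and both untreated arrays lay below it. The share of all genes with such a split was not counted. Endoglin siRNA minus untreated was 0.59 on the log2 scale. The Edn1 difference is a description, since the members were chosen with these arrays in view, and it was not tested as an independent result. It rests on the dyes as labelled, and is 0.07 with the untreated sign of the deposited table. The sign of the endoglin siRNA pool, 0.10, was turned by the background setting (-0.06 with the background fitted without the disturbed spots).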

How the results depend on the processing

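With endoglin siRNA, Adm, Agtr1a and Ptgs2 stayed above and Ptgis below control siRNA in all 12 alternatives. Not all of these are separate checks of the sign. The replicate block and leaving out an untreated array cannot change these means, and the value table holds the Feature Extraction ratios again. Genes passing in the order endoglin siRNA against control siRNA, untreated against control siRNA and endoglin siRNA against untreated numbered 2075, 181 and 26, and 4505, 513 and 168 without background correction, 4157, 462 and 198 without the disturbed spots, and 3963, 1045 and 269 with RNA source as a replicate block. Without the filter on dim probes the untreated comparisons gave 357 and 47, and with all probes averaged the last gave 17. With Feature Extraction log ratios, the value table (untreated arrays turned back) and median centring 0 genes and 0 members passed in limma (7110, 7106 and 6180 genes unadjusted in the first comparison, 3331, 3332 and 73 in the second, 2779, 2775 and 260 in the third); the cause was not tested. Leaving out 1 array gave 898 to 2683, 0 to 760 and 0 to 434 genes, and 3 to 5, 0 to 2 and 0 to 2 members. The first count was lowest without the endoglin siRNA array of 1 animal. In these fits the lone array of a group is assumed to vary like the other group. The second was 0 without the untreated pool (1995 genes unadjusted), and so was the third (1234). Members passing against untreated cells were 1 (Ptgis) without background correction and without the disturbed spots, and 1 (Edn1) with the block, which also gave 2 members (Adm and Ptgs1) in untreated cells and added Edn1 to the 4 with endoglin siRNA against control siRNA. The arrays share no number in the labels; the differences of 1 animal minus pool correlated at 0.29 over genes between groups. Untreated ratios that changed sign were Ednra (0.02) and Ptgs2 (0.20) with median centring, Ptgs2 with all probes averaged (0.03) and without the disturbed spots (0.00), Ptges without background correction (-0.18), with the disturbed spots removed (-0.19), and from Feature Extraction ratios or the value table turned back to Cy5 over Cy3 (-0.29); with 1 untreated array left out, Ednrb was -0.02 to 0.10, Ptgs2 -0.03 to 0.00 and Ptges -0.28 to 0.47. Median centring moved the median of all genes with endoglin siRNA to 0.32; relative to it Adm was 1.94, Agtr1a 1.68, Ptgs2 0.63, Ptgis -1.12, Ednra -0.28 and Ptges -0.17. With 2 arrays per group, dim probes such as Ednra and Ptges allow no order between groups.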
